A study of Bos taurus with 138 samples.

Results

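Proteasome genes were described in bovine oocytes and preimplantation embryos at 6 stages, namely germinal vesicle (GV) oocytes, metaphase II (MII) oocytes, 2-cell embryos, 8-cell embryos, morulae and blastocysts. The genes were chosen by symbol alone, as the rows whose symbol starts with PSMA, PSMB, PSMC, PSMD, PSME, PSMF or PSMG plus a digit, and 49 of the 16706 symbols met this rule. Of these, 14 encode the constitutive core particle (7 in the alpha ring and 7 in the beta ring), and 5 encode core subunits found in restricted tissues. The regulatory particle accounts for 17 genes, 9 of the base and 8 of the lid, and 3 more encode chaperones that help to assemble the base. A further 5 encode activators or an inhibitor of the core, and 4 encode chaperones of core assembly. PSMC3IP, a partner of the recombinases of meiosis, bears the prefix but is not a proteasome subunit.

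The GV oocytes were taken from slaughterhouse Bos taurus ovaries, the MII oocytes were such oocytes matured in vitro, and the embryos were made by in vitro fertilisation with frozen semen of a Holstein bull and cultured in vitro. No stage carried a genetic change. Oocytes and embryos were exposed to cycloheximide, which halts ribosomes on mRNA, and freed of the zona pellucida with protease before they were frozen. Each stage had 2 sucrose gradients (A and B) collected as 10 fractions, F1 to F10, from pooled oocytes or embryos, and 3 transcriptomes of whole oocytes or embryos (A, B and C). In the study F1 and F2 stand for free RNA, F3 to F5 for single ribosomes, F6 and F7 for an intermediate class and F8 to F10 for polysomes. The 3 polysome fractions of a gradient were summed here into a pool, so that n = 2 for polysomes and n = 3 for transcriptomes at each stage.

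The proteasome degrades proteins tagged with ubiquitin. Its core is a barrel of stacked rings in which the outer alpha rings gate the entrance and the inner beta rings hold the catalytic subunits PSMB5 (chymotrypsin-like), PSMB6 (caspase-like) and PSMB7 (trypsin-like). The regulatory particle binds, deubiquitinates and unfolds substrates with a base of ATPases (PSMC1 to PSMC6) and a lid that includes the deubiquitinase PSMD14. In oocytes and cleavage embryos it clears maternal proteins around fertilisation and embryonic genome activation, which in cattle occurs mainly at the 8-cell stage.

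Fraction libraries held between 1229382 and 17342859 counts and transcriptomes between 3269386 and 11812567, and the polysome pools between 22543737 and 39380638. The genes described took between 0.381% and 2.14% of the counts of a library. Levels are CPM, the gene's share of the counts of its library scaled with TMM factors. A value in a fraction therefore does not give the amount of RNA in it. Levels of different genes were not compared because transcript lengths were not used. Fraction F10 of MII gradient B had 7396 genes above 0 and F9 of morula gradient A had 5714, against 7669 to 12829 in the other F8 to F10 libraries. Within F8 to F10 the 2 gradients correlated least across genes in F9 of morulae (Pearson's r = 0.626), F10 of 8-cell embryos (0.640) and F10 of MII oocytes (0.655). Of 7 oocyte markers, all were above 0 in every GV, MII, 2-cell and 8-cell transcriptome, with a summed level that went from 17494 to 20540.4 CPM at the GV stage to 301 to 617 at the 8-cell stage. KRT8, KRT18 and 3 other trophectoderm markers summed to 5088 to 5838 CPM at the blastocyst stage. The means there were 1757 CPM for KRT8, 3169 for KRT18, 425 for TFAP2C, 149 for GATA3 and 7.05 for CDX2. The mean of CDX2 was 6.94 CPM at the 2-cell stage. Each call from pools and transcriptomes was repeated without the libraries and gradients of 1 letter at a time, and where the call for a named gene was lost the letter is named. Letter C holds transcriptomes only. For comparisons between pools, leaving it out removes none of the libraries compared and changes only the fit they share with the transcriptomes. For the fraction trends the counts from 1 gradient are given.

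Transcriptome levels were compared between consecutive stages, to ask when each subunit's mRNA rose and fell. Of the 5 steps, most rises came between 2-cell and 8-cell embryos, where 29 of the 48 genes in the fit rose and 4 fell at an adjusted p below 0.05 and a fold change above 2, beside 26.6% and 23.5% of all 14612 genes tested, or 50.1% in either direction. The median log2 fold change was 1.31 over the 48 genes and 0.03 over all genes. Of the beta ring 6 of 7 rose, of the alpha ring 4 of 7, of the base 5 of 9, of the lid 5 of 8 and of the core assembly chaperones 3 of 4. The test was edgeR's quasi-likelihood test with Benjamini-Hochberg adjustment over all genes tested, and the error given for a log2 fold change is its standard error.

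PSMA1 and PSMA2, subunits of the alpha ring, were low until the 8-cell stage. PSMA1 was at 11.5, 10.5 and 4.56 CPM in the 3 GV transcriptomes, 29.997, 33.7 and 32.6 at MII and 1.29, 0.719 and 1.88 at the 2-cell stage. At the 8-cell stage it was at 844, 1047 and 956 CPM. PSMA2 was at 10.6, 8.51 and 5.88 CPM at the GV stage, 45.5, 57.1 and 42.1 at MII, 1.98, 2.72 and 2.48 at the 2-cell stage and 818, 902 and 731 at the 8-cell stage. In both genes every 8-cell library lay above every library of the earlier stages, with log2 fold changes from 2-cell embryos of 9.50 ± 0.54 at adjusted p = 4.00e-12 and 8.41 ± 0.57 at adjusted p = 5.23e-11. Before that they rose from GV to MII (1.85 ± 0.39 and 2.53 ± 0.44) and fell from MII to 2-cell (-4.62 ± 0.45 and -4.33 ± 0.48).

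The other alpha subunits differed among themselves. PSMA5 was at 1118, 1762 and 1382 CPM at the GV stage and 3294, 2607 and 3402 at MII, and fell to 1350.3, 1205 and 1233 at the 2-cell stage and 546, 558 and 338 at the 8-cell stage (-1.39 ± 0.26 at adjusted p = 1.07e-04, for the last step). PSMA3 and PSMA6 rose at the 8-cell stage (1.72 ± 0.28 and 1.07 ± 0.27, the latter lost without letter B), and PSMA4 and PSMA7 did not pass the test with a fold change above 2 (-0.26 ± 0.34 and -0.67 ± 0.21). Transcripts of a single ring thus reached the 8-cell stage by opposite changes, with PSMA5 below and PSMA1, PSMA2, PSMA3 and PSMA6 above their 2-cell libraries without overlap.

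Within the beta ring the catalytic subunits PSMB5, PSMB6 and PSMB7 fell from GV to MII, by log2 fold changes of -2.42 ± 0.20 at adjusted p = 5.22e-09, -1.36 ± 0.29 at adjusted p = 0.00118 and -1.66 ± 0.29 at adjusted p = 1.77e-04, and PSMB1 to PSMB4 did not pass the test there (-0.63, 0.23, 0.02 and 0.36). PSMB5 was at 278, 322 and 273 CPM at the GV stage, 58.5, 57.6 and 47.3 at MII, 96.5, 80.3 and 86.04 at the 2-cell stage and 606, 549 and 548 at the 8-cell stage. It was at 749.7, 679 and 692 CPM at the morula stage and 529.5, 460.2 and 565 at the blastocyst stage. At the 8-cell stage the rise was largest in PSMB6 among the beta subunits (3.92 ± 0.32 at adjusted p = 6.77e-10), followed by PSMB4 (3.24 ± 0.28) and PSMB5 (2.69 ± 0.20). PSMB7 was the exception, at 0.99 ± 0.29 at adjusted p = 0.00600, under the limit of a 2-fold change.

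In the regulatory particle 4 of 9 base subunits fell at maturation, namely the ATPases PSMC1 (-2.90 ± 0.26), PSMC5 (-2.34 ± 0.24), PSMC2 (-1.97 ± 0.25) and PSMC3 (-1.92 ± 0.24), while the ATPase PSMC6 rose (1.31 ± 0.29). PSMC1 went from 377, 244 and 319.6 CPM at the GV stage to 36.98, 51.2 and 37.5 at MII and back to 154, 117 and 153 at the 2-cell stage. Of the lid PSMD8 and PSMD6 fell (-2.12 ± 0.23 and -1.73 ± 0.22). At the 8-cell stage PSMC5 rose most in the base (2.63 ± 0.24 at adjusted p = 3.85e-09) and PSMD8 in the lid (2.00 ± 0.23 at adjusted p = 1.56e-07), and the scaffold PSMD1 of the base and the lid subunit PSMD11 fell (-1.62 ± 0.23 and -1.17 ± 0.29, the latter lost without letter B). The base chaperone PSMD5 also fell (-1.34 ± 0.45), a call lost without letter C. The deubiquitinase PSMD14 rose (1.31 ± 0.26), and the ubiquitin receptor PSMD4 was at 61.6, 55.7 and 62.7 CPM before and 76.7, 82.1 and 80.2 after, a change that did not pass the test (0.41 ± 0.30 at adjusted p = 0.253).

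From GV to MII 6 genes rose and 13 fell of 48, beside 6.61% and 10.5% of all genes. PSMF1, which encodes an inhibitor of the core, fell most, from 69.7, 51.9 and 58.7 to 5.15, 5.88 and 5.23 CPM (-3.47 ± 0.34 at adjusted p = 8.15e-08), and rose again to 32.6, 28.9 and 26.02 CPM at the 2-cell stage. The activator PSME4, which in testis helps to degrade acetylated histones, rose from 16.3, 18.7 and 16.5 to 57.02, 55.6 and 54.7 CPM (1.70 ± 0.58 at adjusted p = 0.0402). PSME3, the nuclear activator, and PSMC3IP fell (-1.74 ± 0.37 and -2.07 ± 0.39). Without the libraries of letter C 1 gene rose and 9 fell. The rises of PSMA1, PSMA5, PSMC6, PSME4 and PSMG3 and the falls of PSMA6, PSMB6, PSME3 and PSMC3IP no longer passed. Those of PSMA5 and PSMG3 were also lost without letter A, and that of PSMA6 without letter B.

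From MII to 2-cell 3 genes rose, PSMF1, PSMC1 and PSMC2 (2.42 ± 0.33, 1.75 ± 0.25 and 1.31 ± 0.24), and 16 fell, beside 6.0% and 5.96% of all genes. The genes that fell included 5 of the alpha ring, 4 of the beta ring and 3 of the core assembly chaperones, among them PSMB3 (-1.83 ± 0.22) and PSMG2 (-2.79 ± 0.31). PSMB10 fell too (-3.52 ± 1.14). Its call was lost without letter C, as were those of PSMA4, PSMA5, PSMC6, PSMD7 and PSME2. The base and lid accounted for 1 each.

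Subunits of the immunoproteasome, which replace the catalytic beta subunits in immune cells and in cells exposed to interferon, were low before the 8-cell stage and rose there. PSMB10 was at 0, 0.240 and 0.150 CPM in the 2-cell transcriptomes and 25.96, 9.32 and 13.4 in the 8-cell transcriptomes (6.90 ± 1.25 at adjusted p = 7.24e-05). PSMB9 went from 3.27, 1.60 and 2.18 to 32.7, 17.03 and 12.8 CPM (3.14 ± 0.43 at adjusted p = 1.73e-06) and PSMB8 from 0.304, 0.560 and 2.48 to 22.3, 6.36 and 8.09 (3.45 ± 1.38 at adjusted p = 0.0390). In each of these genes the 8-cell libraries lay above all 2-cell libraries, and the 8-cell library A was the highest of the 3. Without the libraries of letter C the call for PSMB8 was lost, and it was also lost with the replicate letter as a block.

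The interferon-inducible activators PSME1 and PSME2 rose with them, PSME1 from 13.2, 13.1 and 16.5 to 142, 128 and 176 CPM (3.38 ± 0.31 at adjusted p = 4.14e-09) and PSME2 from 2.59, 2.64 and 3.53 to 76.4, 43.1 and 42.7 (4.21 ± 0.45 at adjusted p = 5.29e-08). By the morula stage PSMB8, PSMB10 and PSME2 had fallen (-4.25 ± 1.45 at adjusted p = 0.0482, -3.31 ± 1.01 at adjusted p = 0.0276 and -1.58 ± 0.40 at adjusted p = 0.00892), and PSMB9 and PSME1 did not pass the test for a fall (-0.89 ± 0.39 and -0.11 ± 0.28). In all, 4 genes rose and 3 fell at this step, beside 6.6% and 7.75% of all genes, with 4 and 5 in DESeq2, and the rises were those of PSME3 (1.76 ± 0.37), PSMG2 (1.45 ± 0.30), PSMB2 (1.32 ± 0.28) and PSMC4 (1.18 ± 0.39). Without the libraries of letter C 0 of these edgeR calls were left, with 9 genes at an unadjusted p below 0.05. Of 14 listed genes of antigen processing 9 also rose at the 8-cell stage and 0 fell, beside 26.6% and 23.5% of all genes, among them the peptide transporter subunits TAP1 (3.60) and TAP2 (8.78). TAP1 lies between PSMB8 and PSMB9 in the RefSeq gene order. The 6 listed immune cell markers summed to 0.522 to 1.34 CPM in the 8-cell transcriptomes with 3 of them at 0 in each, and the 7 cumulus and granulosa markers summed to 114 CPM in library A, 60.0 in B and 68.9 in C, against 104 to 115 at the 2-cell stage and 6.46 to 10.6 at the morula stage. HAS2 made up most of the 2-cell sum, with means of 104 CPM there and 24.5 at the 8-cell stage. TNFAIP6, PTX3, INHA and FSHR went from means of 0.154, 2.22, 0 and 0.0266 CPM to 29.4, 14.5, 6.75 and 3.98. AMH went from 0 to 0.640 CPM and CYP19A1 from 2.10 to 1.11. The part of immune, cumulus or granulosa cells in the result was not tested.

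PSMA8, the alpha subunit of the testis proteasome, was low throughout, at 5.77, 9.74 and 6.39 CPM at the GV stage, 15.1, 8.41 and 14.5 at MII and 0.588, 0 and 1.40 at the blastocyst stage, and the smallest adjusted p over the 5 transcriptome steps was 0.199. PSMB11, the thymus subunit, was above 0 in 15 of 138 libraries with a highest level of 2.45 CPM and did not enter the fit. It lies next to PSMB5 in the RefSeq gene order, and whether the counting used strand is not given in the sources used here.

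From morula to blastocyst 22 of the 48 genes fell and 0 rose, beside 11.4% and 10.2% of all genes. The falls covered 6 of 7 alpha subunits, 5 of 7 beta subunits, 7 of 9 base subunits and 2 of 8 lid subunits, with a median log2 fold change of -1.01 against -0.01 over all genes. The lid subunit PSMD13 went from 108, 101 and 85.1 to 14.7, 12.4 and 15.8 CPM (-2.78 ± 0.30 at adjusted p = 4.37e-07), and PSMD10 (gankyrin), a chaperone of the base, from 107, 120.2 and 117 to 18.8, 22.6 and 10.6 (-2.73 ± 0.39 at adjusted p = 1.85e-05). PSMA6 and PSMB1 fell by similar amounts (-2.50 ± 0.28 and -2.41 ± 0.24). None of the activators or the inhibitor passed the test here, and PSMB5 was among the genes that did not (-0.45 ± 0.19 at adjusted p = 0.0897). The blastocyst holds trophectoderm and inner cell mass, and in these bulk libraries fewer cells of a type cannot be told apart from less RNA per cell.

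**Figure D1:**
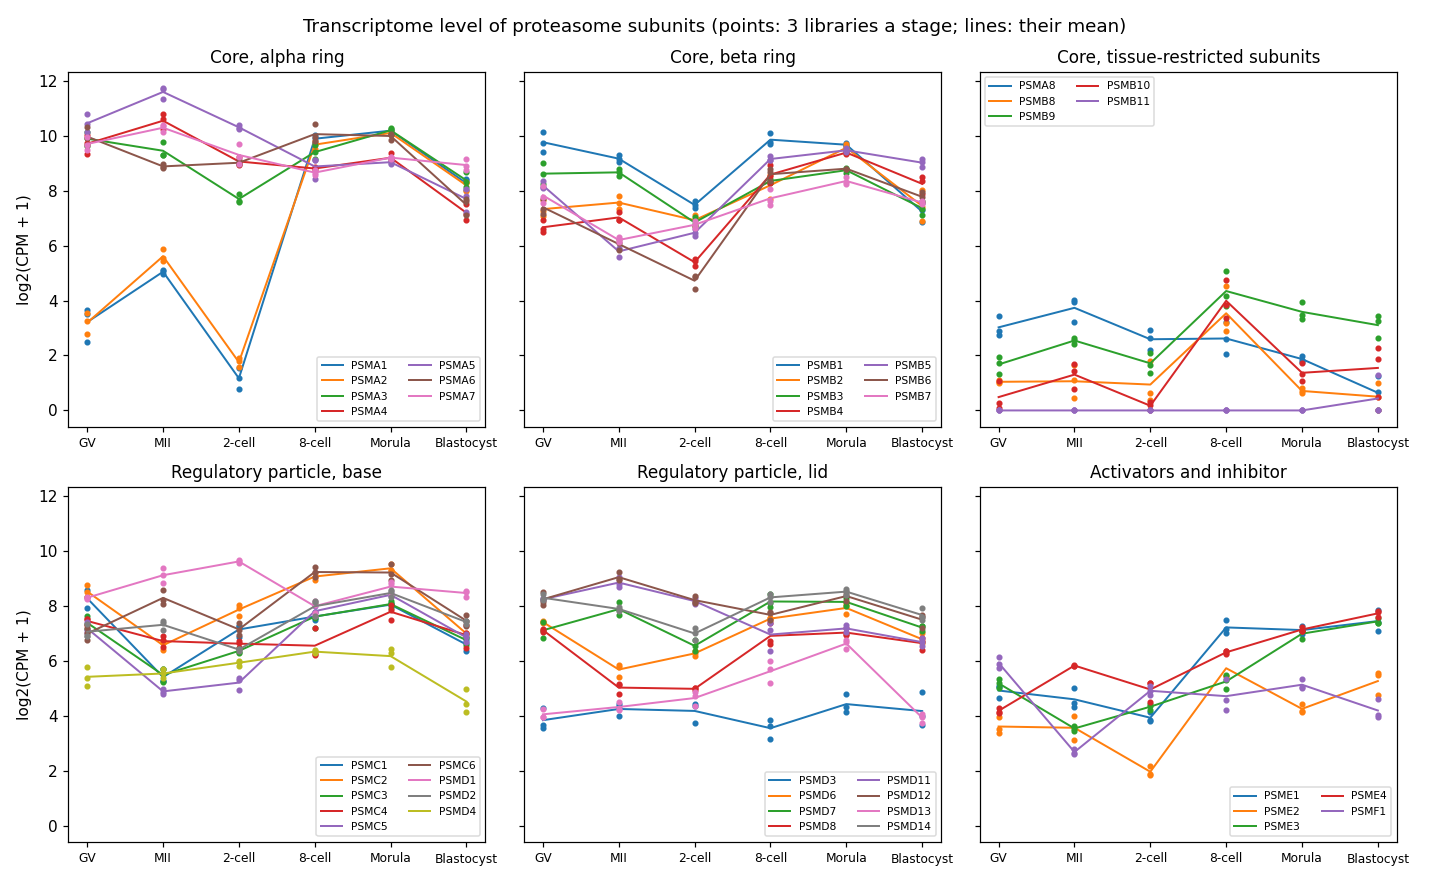
Transcriptome levels as log2(CPM + 1) on the vertical axis against stage, with 1 point for each of the 3 libraries of a stage and lines through the stage means. The genes shown are those of the alpha ring, beta ring, restricted core, base, lid and activators or inhibitor. PSMA1 and PSMA2 rise from below 3 CPM at the 2-cell stage to above 700 at the 8-cell stage, and PSMB8, PSMB9 and PSMB10 have their highest mean at the 8-cell stage.

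Polysome pools were then compared with the transcriptomes of the same stage, which asks whether a subunit's mRNA takes a larger or smaller share of the RNA in F8 to F10 than of the RNA of the whole oocyte or embryo. Pools came from gradient fractions and transcriptomes from whole oocytes or embryos. A difference in polysome loading therefore cannot be told apart from one in library preparation. The genes higher and lower in polysomes numbered 8 and 22 at the GV stage, 17 and 18 at MII, 14 and 19 at the 2-cell stage, 13 and 22 at the 8-cell stage, 20 and 15 at the morula stage, 24 and 9 at the blastocyst stage at an adjusted p below 0.05. The shares of all genes called higher and lower were 22.2% and 17.7% at the GV stage, 30.8% and 26.7% at MII, 29.1% and 21.9% at the 2-cell stage, 28.0% and 31.0% at the 8-cell stage, 26.5% and 25.2% at the morula stage, 20.0% and 20.1% at the blastocyst stage. In either direction, 39.8%, 57.5%, 51.0%, 59.1%, 51.7% and 40.1% of all genes were called in stage order. The median log2 fold change of the 48 genes went from -0.82 at the GV stage to 0.92 at the blastocyst stage, while that of all genes lay between -0.26 and 0.18. With RLE in place of TMM factors the median of all genes moved by over 0.1 at 4 stages, to 0.01 at the 2-cell stage, -0.50 at the 8-cell stage, -0.11 at the morula stage and -0.23 at the blastocyst stage.

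Most calls in the alpha ring were for lower levels in polysomes and most in the beta ring for higher ones, except in the beta ring at the GV stage and in the alpha ring at the blastocyst stage. In the alpha ring 7 of 7 subunits were lower in polysomes at the GV stage, 6 at the MII, 2-cell and 8-cell stages, 5 at the morula stage and 1 at the blastocyst stage, with median log2 fold changes of -2.28, -2.52, -1.86, -2.27, -1.40 and -0.09 in stage order. In the beta ring 1, 5, 4, 4, 5 and 7 of 7 were higher, and 2, 0, 0, 2, 0 and 0 were lower, with medians of 0.33, 1.66, 0.72, 0.84, 1.75 and 2.30. At the blastocyst stage 2 alpha subunits were higher and 1 was lower, a split that became 1 and 2 with RLE factors or DESeq2.

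PSMA3 was lower in polysomes at all 6 stages. It was at 788, 1119 and 963 CPM in the GV transcriptomes and 104 and 107 in the GV pools (-3.18 ± 0.35 at adjusted p = 1.30e-07), and at 676, 797 and 568 against 56.8 and 95.1 at the 8-cell stage (-3.16 ± 0.35 at adjusted p = 7.36e-08). The difference was -0.95 ± 0.32 at adjusted p = 0.0187 at the blastocyst stage, a call lost without letter C. PSMA7 stood apart from the ring, with 589, 505 and 832 CPM in the 2-cell transcriptomes and 1190.2 and 937 in the pools (0.73 ± 0.23 at adjusted p = 0.0108, lost without letter A or B), and was also higher in polysomes at the morula and blastocyst stages. PSMA2 had the largest difference of the ring at the 2-cell stage (-4.27 ± 0.68 at adjusted p = 1.28e-05), where its pools were at 0.0834 and 0.154 CPM.

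PSMB5, the chymotrypsin-like subunit, was higher in polysomes at all 6 stages. Its pools held 407 and 496 CPM at the GV stage, 781 and 498 at MII, 514 and 452 at the 2-cell stage, 2629 and 2624 at the 8-cell stage, 4382 and 3632 at the morula stage and 2243 and 2238 at the blastocyst stage. At MII, where the transcriptomes were at 58.5, 57.6 and 47.3 CPM, the log2 fold change was 3.55 ± 0.22 at adjusted p = 4.60e-12. At the GV stage it was 0.63 ± 0.21 at adjusted p = 0.0175, a call lost without the libraries of letter B or of letter C. PSMB6 was higher from MII on, between 0.98 at the 8-cell stage and 2.47 at MII, and lost its call at the 8-cell stage without letter C. PSMB3 and PSMB4 were also higher at each of these 5 stages. The 2-cell call for PSMB3 was lost without any 1 of the letters, and that for PSMB4 at the MII, 2-cell and 8-cell stages without C and at the 8-cell stage also without B. PSMB7, the trypsin-like subunit, changed direction, with -1.49 ± 0.33 at adjusted p = 9.52e-04 at the GV stage, 1.88 ± 0.32 at adjusted p = 1.97e-05 at MII and -1.80 ± 0.34 at adjusted p = 1.01e-04 at the 8-cell stage.

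The base and the lid were each mixed. In the base 0, 4, 1, 0, 5 and 6 of 9 subunits were higher and 3, 3, 3, 4, 3 and 2 were lower in stage order. PSMC6 was lower at all 6 stages, with 296, 269 and 381 CPM in the MII transcriptomes against 19.4 and 8.80 in the pools (-4.48 ± 0.39 at adjusted p = 9.92e-10) and log2 fold changes of -3.09, -3.89 and -3.22 at the GV, 2-cell and 8-cell stages. PSMC2 was lower at every stage but the blastocyst (-0.50 ± 0.27 there). The ATPases PSMC3, PSMC4 and PSMC5 were higher at the MII, morula and blastocyst stages, as in PSMC3 with 114, 93.5 and 113 CPM in the blastocyst transcriptomes and 367 and 334 in the pools (1.71 ± 0.25 at adjusted p = 8.36e-06). The MII call for PSMC4 was lost without letter A, and the morula call for PSMC5 without A or C. The scaffold PSMD1 was lower from MII on, and the ubiquitin receptor PSMD4 was higher at the morula stage (0.96 ± 0.33 at adjusted p = 0.0173, lost without letter C) and at the blastocyst stage (1.54 ± 0.33 at adjusted p = 6.52e-04).

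In the lid 2, 2, 2, 3, 3 and 3 of 8 subunits were higher and 4, 4, 4, 5, 3 and 4 were lower. PSMD13 was higher at all 6 stages, with 21.9, 17.3 and 17.96 CPM in the MII transcriptomes and 199.6 and 165 in the pools (3.26 ± 0.31 at adjusted p = 4.63e-09), and 14.7, 12.4 and 15.8 against 232 and 161 at the blastocyst stage (3.78 ± 0.32 at adjusted p = 5.46e-09). PSMD7, PSMD12 and PSMD14 were lower at all 6, with the blastocyst call for PSMD7 lost without letter C. For the deubiquitinase PSMD14 the transcriptomes were at 234, 226 and 247 CPM and the pools at 28.8 and 30.6 at MII (-2.99 ± 0.33 at adjusted p = 4.49e-08), and the smallest difference was -1.57 ± 0.31 at adjusted p = 1.77e-04 at the morula stage. PSMD12, another subunit of the lid, differed by -3.72 ± 0.35 at adjusted p = 3.03e-09 at MII. PSMD3 and PSMD8 were higher at the morula stage (3.31 ± 0.55 at adjusted p = 2.54e-05 and 2.84 ± 0.25 at adjusted p = 5.64e-09), and PSMD3 also at the 8-cell stage (2.42 ± 0.54 at adjusted p = 5.31e-04), a call lost without letter B.

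Chaperones of core assembly went opposite ways up to the 8-cell stage. PSMG1 and PSMG2 form the heterodimer that assembles the alpha ring, and PSMG3 and PSMG4 form another heterodimer that acts in the same assembly. PSMG1 was at 368, 497 and 409 CPM in the GV transcriptomes and 10.3 and 6.11 in the GV pools (-5.69 ± 1.22 at adjusted p = 6.13e-04), and at 728, 658 and 885 against 3.85 and 12.1 at MII (-6.57 ± 1.28 at adjusted p = 1.22e-04). The 2-cell difference was -5.35 ± 1.20 at adjusted p = 6.82e-04. At the 8-cell stage the pools were at 0 and 25.02 CPM, below transcriptomes of 259.8, 343 and 249.6 (-4.50 ± 1.15 at adjusted p = 0.00191), and at the morula and blastocyst stages the difference did not pass the test (-2.31 ± 1.02 at adjusted p = 0.0608 and -0.85 ± 0.96 at adjusted p = 0.499). PSMG2 was lower through the morula stage, between -2.83 and -1.54, and at 0.05 ± 0.33 at adjusted p = 0.946 at the blastocyst stage.

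PSMG3 and PSMG4 were instead higher in polysomes at all 6 stages. PSMG3 was at 18.1, 24.2 and 19.9 CPM in the GV transcriptomes and 68.2 and 117 in the pools (2.16 ± 0.33 at adjusted p = 1.31e-05), and at 62.6, 50.2 and 48.6 against 471 and 456 at the blastocyst stage (3.11 ± 0.34 at adjusted p = 1.67e-07). PSMG4 was at 33.8, 16.02 and 11.3 against 87.5 and 248 CPM at MII (3.04 ± 0.48 at adjusted p = 8.88e-06) and at 2.13, 3.44 and 4.74 against 20.3 and 19.9 at the 2-cell stage (2.55 ± 0.48 at adjusted p = 1.12e-04). In the MII pool of gradient B, PSMG4 was at 533 CPM in F10, beside 164 in F8 and 82.1 in F9. At the 8-cell stage the log2 fold changes were 2.47 for PSMG3 and 2.54 for PSMG4. The pools of both genes lay above all transcriptomes of their stage at each of the 6 stages. In free RNA (F1 to F2) PSMG4 had medians of 420, 744 and 36.7 CPM at the GV, MII and 2-cell stages. Those in F8 to F10 were lower, at 151, 84.2 and 16.8 CPM. At the 8-cell stage the 2 medians were 123 and 152, and at the morula stage 109 and 39.3. PSMG3 had 37.8, 49.3 and 17.7 CPM in F1 to F2 at the GV, MII and 2-cell stages, below 83.6, 95.4 and 37.3 in F8 to F10.

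**Figure D2:**
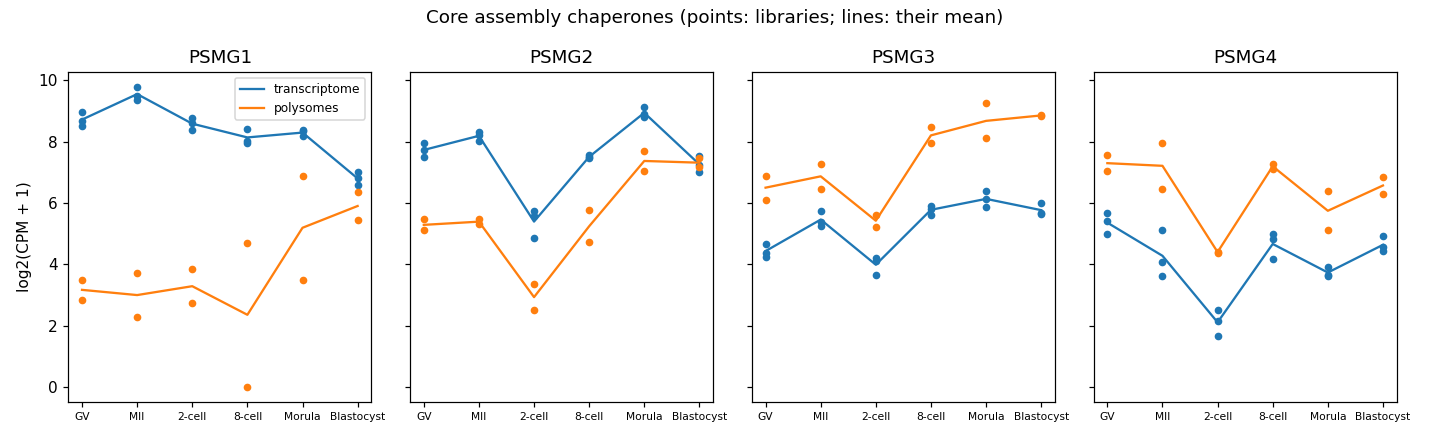
Levels of the 4 core assembly chaperones as log2(CPM + 1) on the vertical axis against stage, in transcriptomes (3 points a stage) and polysome pools (2 points a stage), with lines through the means. The pools of PSMG1 and PSMG2 lie below the transcriptomes up to the morula stage, and those of PSMG3 and PSMG4 lie above them at all 6 stages.

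Among the activators PSME4 was lower in polysomes at all 6 stages, with 57.02, 55.6 and 54.7 CPM in the MII transcriptomes and 0.360 and 1.36 in the pools (-6.01 ± 0.85 at adjusted p = 1.86e-06), and 80.3, 74.4 and 80.1 against 0.0410 and 2.41 at the 8-cell stage (-5.95 ± 0.84 at adjusted p = 2.42e-06). Its call at the blastocyst stage (-2.29 ± 0.68 at adjusted p = 0.00982) was lost without letter C. PSMF1 was higher at all 6, with the largest difference at MII, where the transcriptomes were at 5.15, 5.88 and 5.23 CPM and the pools at 92.5 and 54.4 (3.76 ± 0.36 at adjusted p = 5.24e-09). Its smaller differences at the GV, 8-cell and morula stages (0.95, 1.09 and 1.05) lost their calls without letter C, and those at the GV and morula stages also without letter B. PSME1 was lower at the GV stage and higher at the MII, 2-cell and morula stages (-1.31 ± 0.33, 1.24 ± 0.31, 1.04 ± 0.31 and 0.82 ± 0.31). Leaving out letter B ended the 2-cell call, and leaving out A or C, or the 2 libraries with the fewest genes above 0, the morula call. PSME2 was lower at MII (-1.88 ± 0.48 at adjusted p = 0.00178), and PSME3 at the GV, 2-cell and 8-cell stages (-2.29 ± 0.44, -1.12 ± 0.42 and -1.03 ± 0.41). The 2-cell call for PSME3 was lost without B or C and the 8-cell call without A or C.

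Of the base chaperones PSMD9 was higher in polysomes at all 6 stages, with 90.3, 96.6 and 92.3 CPM in the 8-cell transcriptomes and 427 and 479.7 in the pools (2.28 ± 0.24 at adjusted p = 4.21e-08). PSMD5 was lower at the MII, 2-cell, morula and blastocyst stages (-2.21, -2.00, -1.82 and -1.56), the last lost without letter C. PSMD10 was lower at the GV stage (-2.72 ± 0.46 at adjusted p = 3.99e-05) and higher at the blastocyst stage (2.05 ± 0.41 at adjusted p = 3.39e-04). PSMB9 was the only immunoproteasome subunit to pass, and it was higher at all 6 stages. It was at 9.70, 5.18 and 8.60 CPM in the blastocyst transcriptomes and 73.9 and 81.2 in the pools (3.31 ± 0.45 at adjusted p = 3.08e-06). The calls at the 2-cell (1.33) and 8-cell stages (1.37) were lost without letter C and the former also without B. For PSMB8 and PSMB10 the tests did not pass at any stage. PSMA8 was at 0 in both morula pools against 2.99, 2.41 and 2.59 CPM in the transcriptomes, which is at least 49.3-fold lower when 3 counts over both pools are taken as the floor. PSMC3IP was higher at the 8-cell stage (1.52 ± 0.41 at adjusted p = 0.00289).

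**Figure D3:**
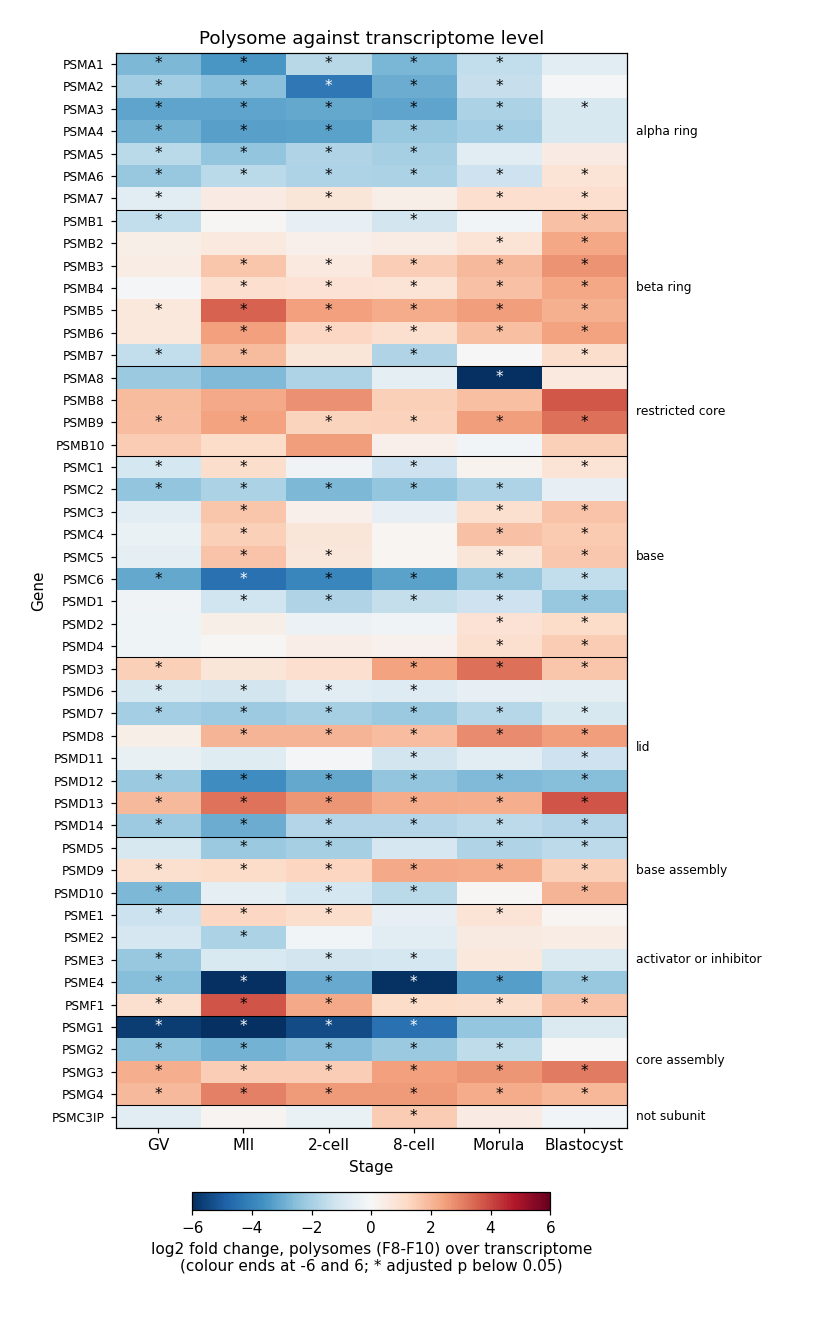
Log2 fold change of polysome pools over transcriptomes, as colour, for the 48 genes in the fit (rows, by role) at 6 stages (columns), with a star where the adjusted p is below 0.05. Called alpha subunits other than PSMA7 are lower up to the morula stage, called beta subunits are higher from MII on except PSMB1 and PSMB7 at the 8-cell stage, and the colour of PSMA8 at the morula stage is a fitted value against pools at 0.

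The low share of the alpha ring was also seen outside the polysome fractions. At the GV stage the median of its 7 subunits, as log2(CPM + 1) minus the transcriptome mean, was -2.46, -2.56, -2.60 and -2.11 in F1 to F2, F3 to F5, F6 to F7 and F8 to F10, and at the 8-cell stage it was -6.75, -5.88, -7.06 and -2.89. The median was below the transcriptome in all 4 classes at all 6 stages. At the 8-cell stage the polysomes were the class closest to the transcriptome. In the same order the median was -3.41, -3.20, -3.28 and -3.35 at MII and -1.65, -1.53, -1.46 and -2.03 at the 2-cell stage. It was -2.77, -3.48, -3.08 and -1.94 at the morula stage and -0.57, -1.97, -1.29 and -0.43 at the blastocyst stage. For the beta ring the corresponding medians were 0.03, -1.60, -0.69 and 0.29 at the GV stage, -1.39, -1.82, -0.40 and 0.54 at the 8-cell stage and -0.01, 0.49, 1.25 and 2.06 at the blastocyst stage. They were 1.79, 0.70, 1.21 and 1.57 at MII, 0.51, 0.06, 0.51 and 0.40 at the 2-cell stage and -0.24, -0.77, 0.39 and 1.17 at the morula stage. At the MII and 2-cell stages the beta median in F1 to F2 thus lay above that in F8 to F10. Over the 12929 genes with a mean of at least 1 CPM the medians were -0.04, 0.04, -0.01 and -0.04 at the GV stage, -0.72, -0.57, -0.91 and -0.78 at the 8-cell stage and -0.94, -0.70, -0.49 and -0.31 at the blastocyst stage. They were 0.08, 0.24, 0 and -0.12 at MII, 0.02, 0.18, 0.01 and 0 at the 2-cell stage and -0.68, -0.59, -0.38 and -0.53 at the morula stage. PSMG1 likewise had lowest, median and highest levels of 5.16, 5.71 and 10.9 CPM over the 6 GV libraries of F3 to F5, beside 4.69, 8.21 and 10.999 over those of F8 to F10. Some genes called higher in polysomes stood higher still in free RNA. At MII PSMF1, PSMB9 and PSMB3 had medians of 186, 59.4 and 3321 CPM in F1 to F2 and 54.1, 19.2 and 1026 in F8 to F10. PSMB5, PSMD13 and PSMD9 went the other way there, at 239, 52.9 and 125 against 605, 155 and 153.

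The summed core stood higher against the summed regulatory particle in pools than in transcriptomes from the 2-cell stage on, where the libraries did not overlap at any of the 4 stages. The log2 ratio of summed core to summed regulatory particle CPM was 1.18 ± 0.28, 1.53 ± 0.21, 0.55 ± 0.08, 1.09 ± 0.20, 1.10 ± 0.04 and 0.76 ± 0.14 (SD, n = 3) in the transcriptomes in stage order. In the pools it was 0.95 ± 0.16, 1.75 ± 0.20, 0.87 ± 0.23, 1.69 ± 0.16, 1.44 ± 0.24 and 1.76 ± 0.07 (SD, n = 2). Polysomes exceeded transcriptomes by 0.99 at the blastocyst stage and by 0.61 at the 8-cell stage. In F2, a fraction of free RNA, the 2-cell ratio was 1.45 in gradient A and 1.48 in B, above the pools at 1.03 and 0.710. At the blastocyst stage F2 was at 1.64 and 1.27, below the pools at 1.71 and 1.81. At the 8-cell and morula stages F2 and the pools overlapped. F1 lay wholly above the pools at none of these stages. Sums follow the most abundant subunits, and only the blastocyst difference held on another scale. With the mean of log2(CPM + 1) over subunits in place of the sum the difference was 0.75 at the blastocyst stage, -0.21 at the 8-cell stage, where the pools lay below the transcriptomes, and 0.092 at the 2-cell stage and 0.0019 at the morula stage, where the libraries overlapped. At the GV stage, where the libraries overlapped on the sums, the difference with log2(CPM + 1) was -0.34 and the pools lay below the transcriptomes. With log2(CPM + 0.1) the GV difference was -0.41 and the 2-cell difference was -0.10. Within the core, the log2 ratio of summed beta to summed alpha CPM was -1.19 ± 0.03, -2.25 ± 0.17, -2.23 ± 0.10, -0.64 ± 0.14, -0.57 ± 0.04 and -0.19 ± 0.05 in the transcriptomes. In the pools it was 0.47 ± 0.42, 0.43 ± 0.05, -0.42 ± 0.01, 2.15 ± 0.08, 1.88 ± 0.16 and 1.75 ± 0.18. At each of the 6 stages the 2 pools lay above all 3 transcriptomes. This was not particular to polysomes. At every stage but MII all fractions of both gradients, free RNA included, also lay above the transcriptomes. In 8-cell F1 the ratio was 0.489 in gradient A and 1.45 in B, beside at most -0.490 in the transcriptomes. At MII, F3 of gradient A was at -2.13, within the range of the transcriptomes.

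Polysome pools were also compared between consecutive stages, at an adjusted p below 0.05 and a fold change above 2. The genes that rose and fell over the 5 steps in order numbered 8 and 3, 1 and 14, 26 and 6, 21 and 3, 1 and 9. The shares of all genes were 3.03% and 2.33%, 3.37% and 5.14%, 21.0% and 25.2%, 18.5% and 17.7%, 5.79% and 8.13% in step order, or 5.37%, 8.51%, 46.3%, 36.2% and 13.9% in either direction. From 2-cell to 8-cell PSMA2 rose from 0.0834 and 0.154 to 79.5 and 130.3 CPM (9.72 ± 0.78 at adjusted p = 2.39e-09) and PSMA1 from 0.639 and 0.154 to 157 and 129.6 (8.45 ± 0.64 at adjusted p = 1.65e-09). PSMB10 rose too (4.71 ± 1.31). PSMD11 fell most (-2.13 ± 0.36 at adjusted p = 5.73e-05), followed by PSMA5 (-1.60 ± 0.32) and PSMB7 (-1.53 ± 0.36, lost without letter A). At the step from 8-cell to morula the genes that rose included 5 of 7 alpha, 4 of 7 beta and 5 of 9 base subunits, among them PSMC4 from 40.4 and 175 to 678 and 826 CPM (2.80 ± 0.50 at adjusted p = 1.90e-04), PSME3 (3.44 ± 0.48 at adjusted p = 1.14e-05) and PSME4 (3.50 ± 0.77 at adjusted p = 0.00122). PSMB10 fell there from 17.02 and 22.99 to 0.193 and 2.73 CPM (-3.75 ± 1.25 at adjusted p = 0.0217), and the fall of PSMG4 was lost without letter B or C (-1.33 ± 0.52 at adjusted p = 0.0489). PSMA8 went from 5.99 and 1.46 CPM to 0 in both morula pools, at least 69.0-fold lower. Its 8-cell level came from 1 fraction of each gradient, F8 of A (19.8 CPM) and F9 of B (4.07), and the other 8-cell polysome fractions were at 0.

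From GV to MII PSME1 rose most in polysomes, from 12.03 and 11.8 to 56.95 and 55.4 CPM (2.24 ± 0.36 at adjusted p = 5.98e-04). PSMA7 (1.75 ± 0.26) and PSMB7 (1.71 ± 0.36) followed. PSMD6 fell (-1.89 ± 0.27 at adjusted p = 2.99e-04), as did PSMC2 (-1.48 ± 0.30) and PSMD14 (-1.21 ± 0.32, lost without letter C). From MII to 2-cell the falls were led by PSMA2 (-6.08 ± 0.70 at adjusted p = 1.25e-05), PSMG4 (-3.06 ± 0.56 at adjusted p = 0.00140) and PSMB3, which went from 1102 and 1463 to 188 and 153 CPM (-2.91 ± 0.28 at adjusted p = 1.73e-06). In F10 of MII gradient B, the library with 7396 genes above 0, PSMA2 was at 48.0 CPM and PSMG4 at 533. In the other MII libraries of F8 to F10 they were at 0 to 3.97 and 56.2 to 164 CPM. The rise of PSMD6 at that step (1.06 ± 0.27 at adjusted p = 0.0144) was lost without letter A or C. From morula to blastocyst PSMD3, PSMD6 and PSMD1 fell most (-1.85 ± 0.60 at adjusted p = 0.0410, -1.26 ± 0.27 at adjusted p = 0.00351 and -1.25 ± 0.28 at adjusted p = 0.00432). PSMD3 lost its call without letter C, and PSMD6 and PSMD1 without letter B. Without letter C, which no pool bears, the polysome calls numbered 6 at the first step and 3 at the last.

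Whether a gene changed differently in polysomes and in the transcriptome was tested by the interaction of the 2 kinds of library with stage. At maturation 13 genes changed more upward in polysomes than in the transcriptome and 3 more downward, beside 7.14% and 3.5% of all genes. They included 5 of 7 beta subunits and the ATPases PSMC1, PSMC3 and PSMC5. PSMB7 fell in the transcriptome from 184, 289 and 215 to 68.5, 78.1 and 71.5 CPM and rose in polysomes from 80.5 and 82.97 to 321 and 213, a difference of 3.37 ± 0.46 at adjusted p = 2.89e-05 between the log2 fold changes. PSME4 went the other way, with a rise in the transcriptome and pools of 3.81 and 1.95 CPM at the GV stage and 0.360 and 1.36 at MII (-3.43 ± 0.94 at adjusted p = 0.0186, lost without letter C). At the later steps the counts upward and downward were 0 and 1, 1 and 3, 5 and 1, 8 and 0 in order, beside 0.725% and 1.08%, 3.45% and 8.72%, 7.06% and 5.41%, 6.04% and 6.24% of all genes. In either direction the shares were 10.6%, 1.81%, 12.2%, 12.5% and 12.3% over the 5 steps. With DESeq2 the counts upward and downward were 1 and 5 from MII to 2-cell and 9 and 2 from morula to blastocyst. Without letter C the calls numbered 7, 0, 1, 0 and 2 over the 5 steps, with 18, 10, 6, 15 and 9 at an unadjusted p below 0.05.

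The order of levels along the gradient was measured by Spearman's rho between CPM and fraction number over the 16 libraries of F3 to F10, with a two-sided p from 100000 permutations. The permutations mixed the fractions of the 2 gradients freely, so the p-value does not measure the spread between gradients. Genes with a rising and a falling trend at an adjusted p below 0.05 numbered 14 and 11 of 47 at the GV stage, 5 and 13 of 47 at MII, 5 and 14 of 46 at the 2-cell stage, 9 and 1 of 48 at the 8-cell stage, 9 and 0 of 47 at the morula stage, 13 and 0 of 47 at the blastocyst stage. Over all genes tested the shares were 18% and 18.7% at the GV stage, 7.28% and 12.3% at MII, 10.8% and 9.91% at the 2-cell stage, 6.45% and 8.72% at the 8-cell stage, 0.879% and 0.629% at the morula stage, 6.15% and 1.76% at the blastocyst stage. In oocytes and 2-cell embryos rising and falling genes were thus both present, and from the 8-cell stage on 1 gene had a falling trend, PSMD9 at the 8-cell stage (-0.73).

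Of the beta ring 3, 3, 3, 6, 5 and 7 of 7 subunits rose towards heavier fractions in stage order, and 0 fell at any stage. At the GV stage PSMB4, PSMB2 and PSMB6 had rho of 0.92, 0.89 and 0.88 (adjusted p = 2.33e-04, 2.33e-04 and 3.40e-04, permutation). PSMB5 at the 8-cell stage had lowest, median and highest levels of 534, 1322 and 1579 CPM over the 6 libraries of F3 to F5 and 1618, 2891 and 3421 over those of F8 to F10, with rho of 0.82 (adjusted p = 0.00625, permutation). At the blastocyst stage all 7 subunits rose, with PSMB7, PSMB1 and PSMB5 at 0.94, 0.93 and 0.91. PSMB4 was at 0.84 at MII and 0.90 at the morula stage, PSMB5 at 0.80 at the 2-cell stage, and PSMB1 at 0.90 at the 8-cell stage.

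Most base subunits fell towards heavier fractions at the first 3 stages. In stage order 5, 6 and 6 of 9 had a falling trend, and in each later stage 0 fell and 1 rose. PSMC3 had rho of -0.92 at the GV stage, -0.91 at MII and -0.93 at the 2-cell stage (adjusted p = 3.40e-04, 0.00110 and 0.00177, permutation), and its 2-cell levels were 208, 277 and 387 CPM (lowest, median and highest) in F3 to F5 and 46.7, 90.1 and 125 in F8 to F10. PSMC5, PSMD2 and PSMD4 fell at the same 3 stages, and PSMC1 at the MII and 2-cell stages (-0.91 and -0.90). PSMC6 and PSMD1 rose at the GV stage (0.76 and 0.83). Not every base subunit counted as falling is named here, and at these 3 stages those neither rising nor falling had no trend that passed.

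The lid had no common trend. At the GV stage PSMD7, PSMD6, PSMD12 and PSMD14 rose (0.84, 0.75, 0.75 and 0.64) and PSMD3, PSMD8, PSMD11 and PSMD13 fell (-0.98, -0.79, -0.62 and -0.59). PSMD6 reversed to -0.88 at MII and -0.79 at the 2-cell stage, and PSMD14 to -0.81 at MII. PSMG3 rose in the 4 stages up to the 8-cell embryo (rho between 0.76 and 0.87) and PSMG4 at the GV, 2-cell and 8-cell stages. PSMG2 fell at MII (-0.72) and PSMG1 had no trend that passed. PSMF1 fell at the GV stage (-0.86), PSME2 at the MII and 2-cell stages (-0.66 and -0.74), and PSME3, PSMD5, PSMD9 and PSMD10 at the 2-cell stage. Alpha subunits that passed went both ways, as PSMA7 in GV and MII oocytes (-0.80 and -0.91) and PSMA5 at MII (0.83).

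Fewer trends were called from 1 gradient alone. With gradient B alone the called genes numbered 12, 2, 8, 3, 0 and 0 in stage order, and with gradient A alone 9, 1, 0, 0, 0 and 0. At an unadjusted p below 0.05 they numbered 20, 19, 15, 12, 20 and 15, and 22, 29, 13, 10, 15 and 17. Without F10 of MII gradient B and F9 of morula gradient A, the 2 libraries with the fewest genes above 0, 8 genes rose and 15 fell at MII and 9 rose at the morula stage.

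**Figure D4:**
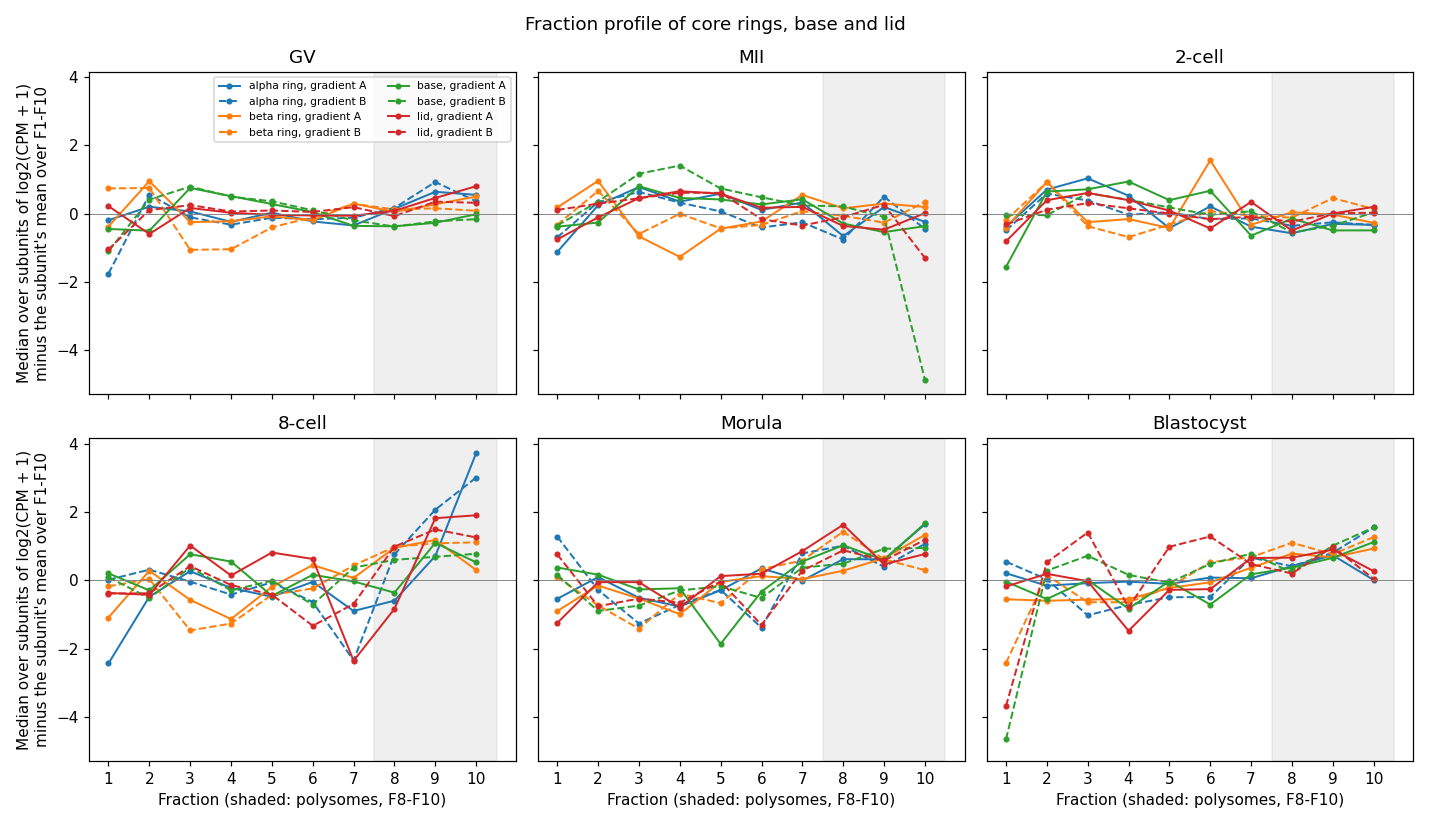
Median over the subunits of each ring, the base and the lid of log2(CPM + 1), after subtraction of each subunit's mean over F1 to F10, on the vertical axis against fraction, with solid lines for gradient A, dashed lines for gradient B and polysome fractions shaded. At the GV, MII and 2-cell stages the base declines from F3 to F8, and from the 8-cell stage on the 4 groups are mostly higher in F8 to F10 than in F3 to F5. The low base value at F10 of MII gradient B is from the library with 7396 genes above 0.

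**Figure D5:**
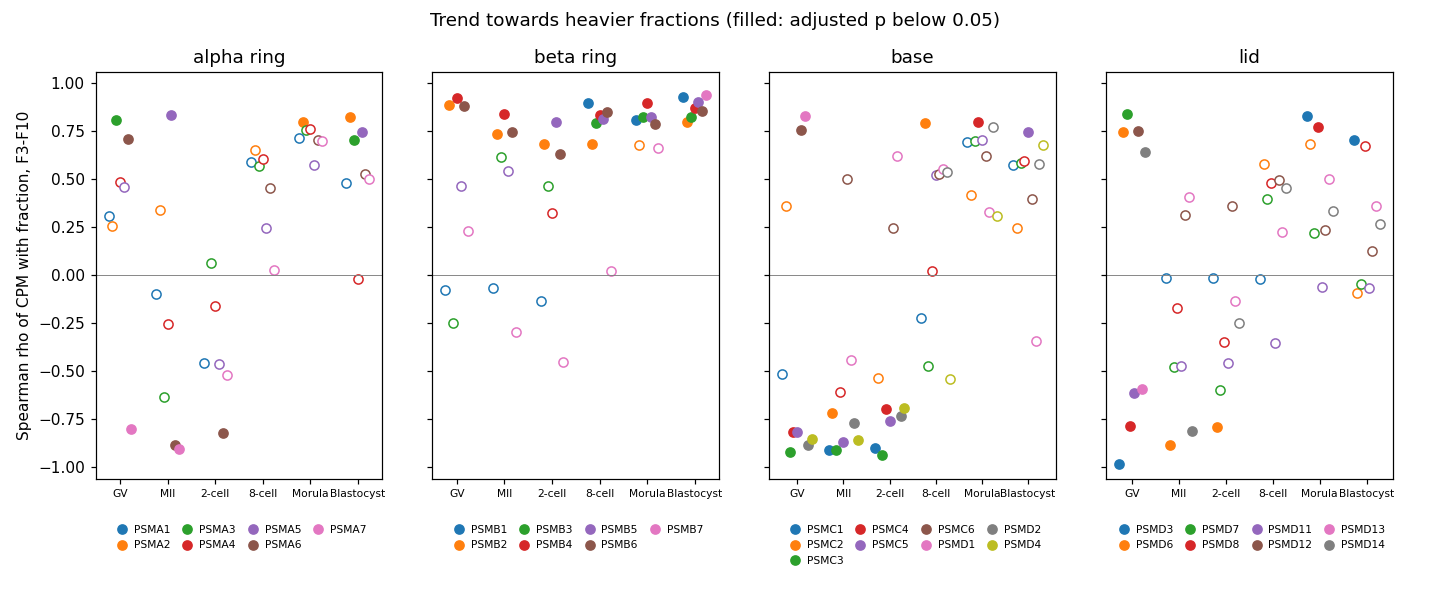
Spearman's rho between CPM and fraction over F3 to F10 (16 libraries) on the vertical axis against stage, with 1 point per subunit and filled points for an adjusted p below 0.05. Called beta subunits are positive at all 6 stages, and called base subunits are mostly negative up to the 2-cell stage and positive after it.

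The change of slope between 2-cell and 8-cell embryos was tested directly, as the difference of log2 slopes per fraction in edgeR, a test added after the trends were seen. Of 45 genes tested 8 had a more positive slope at the 8-cell stage and 0 a more negative one, beside 3.29% and 5.29% of all 10682 genes. They were PSMA1, PSMA6, PSMB1, PSMB4, the base subunits PSMC2, PSMC5 and PSMD2, and PSMC3IP. The 2-cell slope of PSMA1 rests on levels near the floor. Its 2-cell medians were 1.26 CPM in F3 to F5, 0.0370 in F6 to F7 and 0.167 in F8 to F10. The slope of PSMA6 went from -0.27 to 0.25 (difference 0.52 ± 0.09, adjusted p = 5.06e-04) and that of PSMC2 from -0.19 to 0.58 (0.78 ± 0.21, adjusted p = 0.0161). Without gradient A 4 genes passed and without gradient B 1, with 15 and 8 at an unadjusted p below 0.05.

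Other genes of the pathway were followed as lists. Of 21 tested partners of the proteasome, the numbers higher and lower in polysomes were 4 and 8, 6 and 7, 6 and 6, 5 and 6, 6 and 4, 5 and 9 in stage order, beside 22.2% and 17.7%, 30.8% and 26.7%, 29.1% and 21.9%, 28.0% and 31.0%, 26.5% and 25.2%, 20.0% and 20.1% of all genes. ADRM1, a ubiquitin receptor of the base, was higher at all 6 stages (log2 fold change between 2.64 and 4.39), and UCHL5 and USP14, the deubiquitinases that associate with the regulatory particle, were lower at all 6 (between -3.70 and -1.62, and between -4.63 and -1.55). The blastocyst call for UCHL5 was lost without letter C. POMP, the chaperone that guides beta ring assembly, was at -2.51 at the GV stage and 0.47 at the blastocyst stage. In the transcriptome step from 2-cell to 8-cell the counts rising and falling were 5 and 2 of the 21 partners, 2 and 2 of 7 genes that control proteasome transcription, 3 and 0 of 6 ubiquitin and E1 genes and 3 and 2 of 10 subunits of the COP9 signalosome, a complex related to the lid, beside 26.6% and 23.5% of all genes.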

How the data were processed

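The authors deposited 1 table of expected counts per gene for 138 libraries, made with Salmon from Smart-seq libraries. The genome build is given as UMD3.1 per the labels and differs in the study's methods, so no coordinates are given, and the settings of the alignment are not given in the sources used here. The estimates, of which 11.65% were not whole, were rounded. F8 to F10 of each gradient were summed into 12 pools, which were fitted with the 18 transcriptomes in edgeR 4.0.16 (R 4.3.3; quasi-likelihood test, TMM factors, filterByExpr, 12 groups of kind and stage, Benjamini-Hochberg adjustment over 14612 genes). Of the 49 genes 48 passed the filter. Polysomes and transcriptomes of a stage and the interactions were called at an adjusted p below 0.05, and steps between stages also needed a fold change above 2. Fraction trends (scipy 1.17.1, mean of at least 1 CPM) used 100000 permutations.

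The tests were checked on simulated data. The simulated libraries were independent, with the same dispersion for every gene, so the check does not cover the spread between gradients. Letters A to C did not pair the libraries: over 27 pairs of the same letter the correlation of deviations lay between -0.345 and 0.13, and 1 was over 0.1. Nothing in the labels says how far replicates are separate collections, so p-values for groups of pools and transcriptomes measure the spread between these libraries. The trend permutations and the slope fits took the fractions of the 2 gradients as independent libraries. Their p-values describe order along these gradients and not the spread between gradients. The floor of 3 counts covers counting error only. Alternatives were another normalization, DESeq2 1.42.0, a likelihood ratio test, no filter, equal totals of the fractions summed, a letter block, each letter left out and, added after the data were seen, the 2 polysome libraries with the fewest genes above 0 left out. Genes named were those of a role given for each stage, and in each comparison up to 3 a direction with the largest change among those called without overlap of the groups. The members and lists were chosen with earlier results of these data known.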

Additional observations from a re-analysis of the deposited data

Results flagged for a closer look

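The interaction of kind of library with stage passed for between 1 and 16 of the 48 genes at a step. The polysome change of these genes differed from their transcriptome change. The share that passed was well above that of all genes from GV to MII and somewhat above it from morula to blastocyst. At the steps between these it was close to or below the share of all genes. Whether these shares differ was not tested. From GV to MII 16 of 48 genes passed, beside 10.6% of all genes. The largest upward differences were those of PSMB7, at 3.37 ± 0.46 (adjusted p = 2.89e-05), PSMB5, at 2.92 ± 0.30 (adjusted p = 1.51e-06), and PSMF1, at 2.81 ± 0.50 (adjusted p = 5.34e-04), and the largest downward ones those of PSME4, at -3.43 ± 0.94 (adjusted p = 0.0186), PSMD12, at -1.52 ± 0.42 (adjusted p = 0.0196), and PSMC6, at -1.39 ± 0.45 (adjusted p = 0.0487), all as differences of log2 fold changes in edgeR. Without letter C the calls for PSME4, PSMD12 and PSMC6 were lost, and that for PSMC6 also without letter B.

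From MII to 2-cell 1 gene passed, beside 1.81% of all genes, namely PSMC3, at -1.40 ± 0.36 (adjusted p = 0.0438), and it was lost without letter A or C. From 2-cell to 8-cell 4 genes passed, beside 12.2% of all genes, with PSMC3IP at 1.90 ± 0.59 (adjusted p = 0.0360), PSME4 at -2.94 ± 0.92 (adjusted p = 0.0380), PSMB7 at -2.52 ± 0.46 (adjusted p = 9.90e-04) and PSME1 at -1.52 ± 0.45 (adjusted p = 0.0268). All of these but PSMB7 were lost without letter C.

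From 8-cell to morula 6 genes passed, beside 12.5% of all genes, among them PSMB7 at 1.79 ± 0.45 (adjusted p = 0.0112), PSMC3 at 1.46 ± 0.36 (adjusted p = 0.00949) and PSMC1 at 1.42 ± 0.39 (adjusted p = 0.0183), and 0 passed without letter C, with 15 at an unadjusted p below 0.05. Without letter A the calls for PSMB7 and PSMC1 were lost. From morula to blastocyst 8 genes passed, beside 12.3% of all genes, among them PSMA6 at 2.06 ± 0.43 (adjusted p = 0.00328) and PSMD10 at 1.99 ± 0.59 (adjusted p = 0.0278), of which PSMD10 was lost without letter C. PSMA8 also passed at the last 2 steps, but its morula pools were at 0, so its fitted value depends on the prior count. The fraction slope of 8 of 45 genes differed between 2-cell and 8-cell embryos, beside 3.29% of all genes with a more positive and 5.29% with a more negative slope.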

How the results depend on the processing

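All comparisons of polysomes with transcriptomes, the transcriptome steps from MII to 2-cell, 2-cell to 8-cell and morula to blastocyst, and the polysome steps from MII to 2-cell, 2-cell to 8-cell and 8-cell to morula kept their count of called genes within 1.5 times under the alternatives run. With each letter left out in turn, the counts were 10 to 22 for the transcriptome from GV to MII, 0 to 9 for the transcriptome from 8-cell to morula, 6 to 16 for polysomes from GV to MII and 3 to 15 for polysomes from morula to blastocyst. For polysome change minus transcriptome change they were 7 to 25, 0 to 9, 1 to 9, 0 to 19 and 2 to 19 in step order. With 1 gradient, trends numbered 9 to 12 at the GV stage, 1 to 2 at MII, 0 to 8 at the 2-cell stage, 0 to 3 at the 8-cell stage and 0 at both later stages, and slope differences 1 to 4.

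For polysome change minus transcriptome change from MII to 2-cell the count of 1 became 3 with the likelihood ratio test, 6 with DESeq2, 2 with no filter, 4 without the 2 libraries with the fewest genes above 0, and 0 with equal totals or the replicate block, which moved no other count of calls by over 1.5 times. None of the genes picked by the naming rule changed direction under any alternative. From 2-cell to 8-cell DESeq2 gave 8, and from 8-cell to morula the likelihood ratio test gave 12, DESeq2 14 and RLE factors 11. RLE factors gave 5 for polysomes from morula to blastocyst. An edgeR slope in place of the rank trend gave 11 in 2-cell embryos and 8 in blastocysts. The cause of these moves was not tested.

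With the mean of log2(CPM + 1) over subunits in place of the sum, the core over regulatory particle difference was -0.21 at the 8-cell stage, 0.0019 at the morula stage and 0.75 at the blastocyst stage, and with log2(CPM + 0.1) it was -0.030 at MII, -0.10 at the 2-cell stage, -0.21 at the 8-cell stage, -1.64e-04 at the morula stage and 0.74 at the blastocyst stage. At the GV stage the difference was -0.34 with log2(CPM + 1) and -0.41 with log2(CPM + 0.1). The GV pools lay below the transcriptomes on both of these scales. With log2(CPM + 0.1) the 2-cell ratio itself turned to -0.050 in transcriptomes and -0.15 in polysomes. With 2 gradients and 3 transcriptomes a stage, low genes such as PSMA8 and PSMB11 lie near the level that single counts give.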
